A study of Saccharomyces cerevisiae with 4 samples.

Results

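The ribosomal DNA (rDNA) region of budding yeast was read as 205 consecutive windows of 200 bp on chromosome XII, from 450001 to 491000 of the sacCer3 build, out of 60365 such windows in the nuclear genome. The windows were set by position alone and hold 41 annotated genes, 19 of them protein-coding. The data were peak lists from chromatin immunoprecipitation (IP) with sequencing, 1 list for each of 3 IPs, all made with the same anti-HA antibody. The groups were an IP from strain LRY1926, whose Sir2 carries an HA tag, an IP from strain LRY0558, whose Hst1 carries an HA tag, and a mock IP from the parental strain LRY1009, the strain that also gave the genomic input. All strains were grown in rich glucose medium at 30 °C to early log phase. The input was not used here. Each IP had a single list, so no difference could be tested against replicate spread, and every comparison describes these lists and not the conditions.

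Yeast rRNA comes from a tandem array of near-identical repeats. Each repeat holds a 35S precursor unit, read by RNA polymerase I into 18S, 5.8S and 25S rRNA, and a 5S gene, read by RNA polymerase III. Nontranscribed spacers flank the 5S gene: NTS1 holds the replication fork block, and NTS2 holds an origin and the 35S promoter. Sir2, an NAD+-dependent histone deacetylase, acts in the rDNA within the RENT complex with Net1 and Cdc14, where it silences RNA polymerase II transcription and limits recombination between repeats. Hst1 is its paralogue and works mainly with Sum1 at sporulation and NAD+ synthesis genes.

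The build shows the array as 2 copies of the 35S unit, RDN37-1 (451575 to 458432) and RDN37-2 (460712 to 467569), a repeat step of 9137 bp. A 5S gene follows each, RDN5-1 (459676 to 459796) and RDN5-2 (468813 to 468931). Beyond them lie 4 more 5S copies, RDN5-3 (472465 to 472583), RDN5-4 (482045 to 482163), RDN5-5 (485697 to 485815) and RDN5-6 (489349 to 489469). The ASP3-1 to ASP3-4 genes, which encode a secreted asparaginase made under nitrogen starvation, are interleaved with these copies. By the letter in the locus tags, the 5S genes run on the plus strand and the 35S units and ASP3 genes on the minus strand. At the right end lies RRT15 (490406 to 490594), a small gene named for an effect on rDNA transcription.

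Sir2 peaks covered the 35S units, the nontranscribed spacers between them and all 6 5S genes, while Hst1 peaks covered the 35S units and most of the spacers but none of the 4 outer 5S genes. The mock IP had 0 peaks in the region, and its nearest peak lay 528503 bp to the right. Sir2 had 8 peaks here, covering at least 1 bp in 110 of 205 windows (53.7%), where 2.35% of all genome windows were covered. Hst1 had 3 peaks in 91 windows (44.4%), against 4.23% of genome windows. The Hst1 cover rested on peaks low in fold and −log10 q: with only peaks whose −log10 q reached 10, Sir2 kept 51.7% of windows and Hst1 0%, and with only the upper 50% of each list by fold, Sir2 kept 45.9% and Hst1 0%. In both lists at most 400 fragments were stacked at a summit. With 400 stacked over the caller's local background, the number it expected, the Sir2 fold over the repeats could reach 2.54. The Hst1 fold there could reach only 1.35, at a −log10 q of 6.67, so these limits do not compare the 2 proteins. The mock IP had 0 windows, against 0.0431% of genome windows. In bases, Sir2 covered 20296 bp (49.5%, genome 2.11%) and Hst1 17714 bp (43.2%, genome 3.09%), while the mock IP covered 0 bp (genome 0.039%). A window without a peak is one where the authors' caller reported nothing, which does not show that the protein was absent. The lowest local background of any peak was 20.9 for Sir2, 39.4 for Hst1 and 49.4 for the mock IP. A call in the mock IP may thus have needed more stacked fragments than in the others, which limits what its empty windows show. Between Sir2 and Hst1, the background over the repeats stood in the same ratio as this lowest value, 1.89. If the mock IP followed that pattern, its fold there with 400 stacked fragments would stay below the Hst1 limit of 1.35. Its empty windows over the repeats therefore cannot show that mock signal was absent.

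Every base under an Hst1 peak in the region was also under a Sir2 peak. The 91 windows shared by both lists were 82.7% of the Sir2 windows and 100% of the Hst1 windows, and 0.654% of genome windows were shared. Sir2 alone covered 19 windows, and Hst1 alone covered 0. With the −log10 q or fold limit above, 0% of windows were shared, but the Hst1 peak over the repeats could not reach either limit with 400 stacked fragments. Outside the region the shared bases were 19.7% of Sir2 peak sequence and 13.0% of Hst1 peak sequence. The region held 7.98% of all Sir2 peak sequence and 4.74% of all Hst1 peak sequence.

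**Figure D1:**
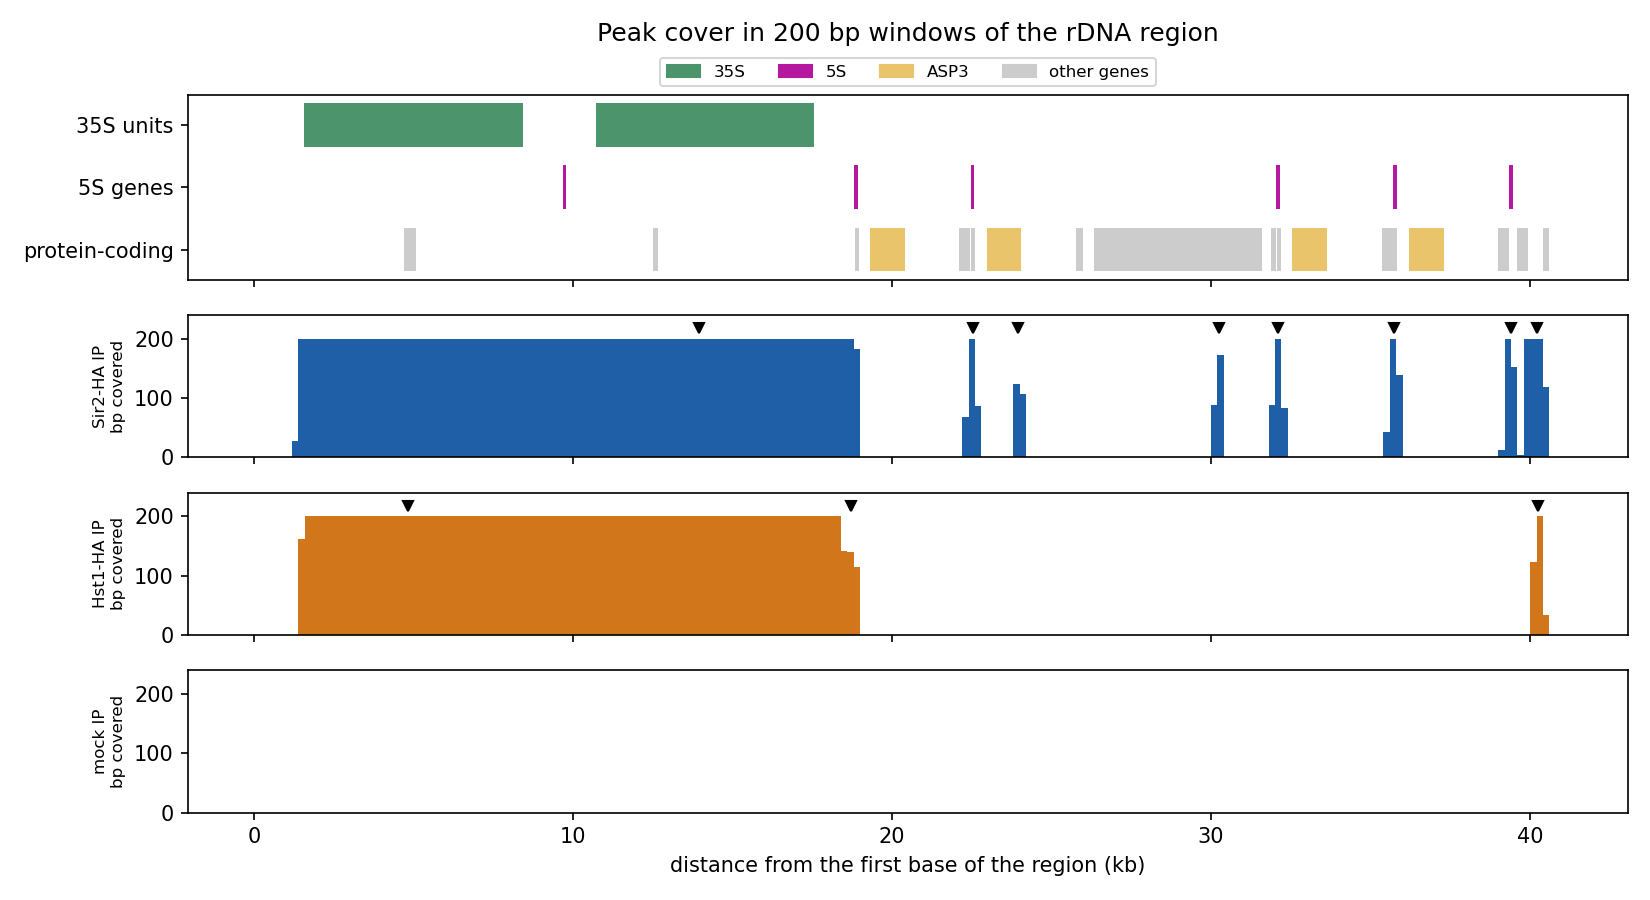
Bases covered by peaks in each 200 bp window (bars, bp) against distance from the first base of the region (kb), for the Sir2-HA, Hst1-HA and mock IPs, below a map of the annotated genes; triangles mark peak summits. Sir2 and Hst1 share the block over both 35S units and the site at the right end, Sir2 alone has 6 short peaks between them, and the mock panel is empty.

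A single long peak accounted for most of the cover in each IP. The Sir2 peak (451373 to 468982, 17610 bp) was the longest of 159 in its list and made up 86.8% of the region's Sir2 cover, and the longest Sir2 peak elsewhere had 16274 bp. The Hst1 peak (451439 to 468541, 17103 bp) was the longest of 692 and made up 96.5% of the region's Hst1 cover, and the longest Hst1 peak elsewhere had 3185 bp. The windows within these peaks were filled without a break: 87 consecutive windows were fully covered by Sir2 and 84 by Hst1. All of the 25S, 18S and 5.8S genes and the 8 transcribed spacer segments were covered in both lists.

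The limits of the long peaks lay close to the ends of the annotated repeats. On the left, the Sir2 peak began 202 bp and the Hst1 peak 136 bp beyond the 3′ end of RDN37-1. On the right, the Sir2 peak ran 51 bp past RDN5-2. The long Hst1 peak stopped 271 bp short of RDN5-2, and after a gap of 119 bp a second Hst1 peak (468661 to 468914, 254 bp) covered 102 of the 119 bp of that gene. The summit of this second peak, 468730, lay in NTS2, 83 bp before the 5S gene. NTS1 (459797 to 460711) and the NTS2 between RDN37-1 and RDN5-1 (458433 to 459675) were fully covered in both IPs. The NTS2 before RDN5-2 (467570 to 468812) was fully covered by Sir2 and to 90.4% by Hst1.

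Neither long peak had its reported summit in a spacer, but both summits stood at 400 stacked fragments, the highest number in either list. Where many bases share that number, the place of a summit is not resolved. A preference for the 25S gene over the spacers therefore cannot be read from these summits. The Sir2 summit, 463943, lay inside RDN25-2, 375 bp from the 5′ end of this 25S gene. The Hst1 summit, 454838, lay inside RDN25-1, 343 bp from the 5′ end, in the other copy of the repeat. Moved back by 1 repeat step, the Sir2 summit falls at 454806, 32 bp from the Hst1 summit. Both places then lie within TAR1 (454696 to 455070), a protein-coding gene antisense to the 25S gene. The copies in the build are near-identical and stand for many copies in the cell, so the copy a summit is assigned to carries no position in the array.

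At the 4 outer 5S genes, Sir2 had 1 short peak each, with the summit inside the gene every time. RDN5-3 had a peak from 472333 to 472687, with its summit at 472525 and a fold of 2.17, the authors' ratio of the summit's pileup to its local background. RDN5-4 had a peak from 481913 to 482283, with its summit at 482096 and a fold of 2.10. RDN5-5 had a peak from 485558 to 485938, with its summit at 485745 and a fold of 2.26. The 4 peaks had nearly the same shape and place relative to the gene, RDN5-6 included, whose peak ran from 489188 to 489552 with its summit at 489395 and a fold of 2.04.

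The summits at these 4 genes lay 46 to 60 bp after the first base of the gene, which is 119 to 121 bp long. The peaks were 355 to 381 bp long, began 132 to 161 bp before the gene and ended 83 to 123 bp after it. Their −log10 q lay between 13.5 and 17.9. Hst1 and the mock IP had 0 peaks at these 4 genes. The lowest local background of any peak was higher in those lists, at 39.4 and 49.4 against 20.9 for Sir2. Equal signal may thus not have been called equally, and whether the IPs differ at these genes was not tested. Small open reading frames lie antisense to the 5S genes here (YLR156C-A, YLR157C-C and YLR159C-A), and each was covered in full by the same Sir2 peak. The step from RDN5-2 to RDN5-3 was 3652 bp, as were those from RDN5-4 to RDN5-5 and on to RDN5-6. From RDN5-3 to RDN5-4 it was 9580 bp, with the Ty1 retrotransposon gene YLR157C-B (476333 to 481601) in between. All 5S copies share sequence, so reads from the array and from these copies may be placed at each other, and the 4 peaks are not independent sites.

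The tRNA genes, which RNA polymerase III also transcribes, were counted beside the 5S genes. Sir2 peaks touched 6 of 6 5S genes and had summits inside 4, but they touched 2 of 275 nuclear tRNA genes (0.727%) and had summits inside 0. Hst1 peaks touched 2 of 6 5S genes, both in the repeats, with 0 summits inside. They touched 91 of 275 tRNA genes (33.1%) and had summits inside 42 (15.3%). The mock IP touched 0 of either kind. These are counts from 1 list each, the 5S copies share sequence, and no difference was tested.

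**Figure D2:**
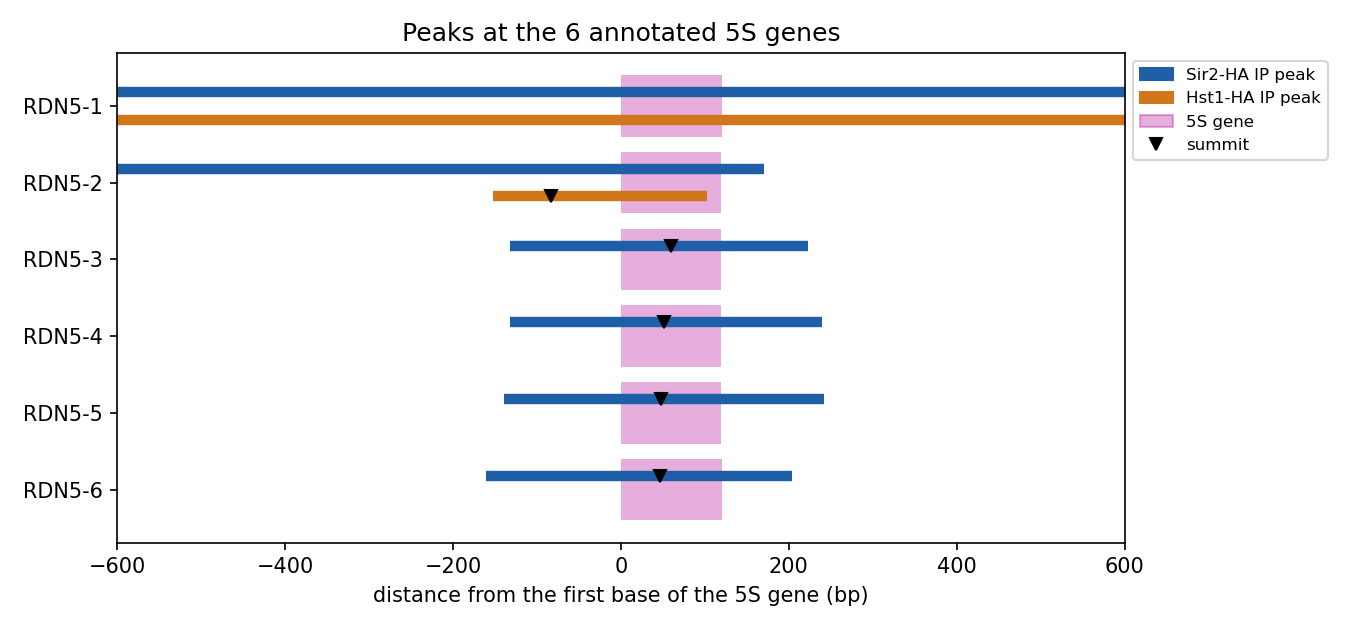
Peaks of the Sir2-HA and Hst1-HA IPs (lines) and their summits (triangles) at the 6 annotated 5S genes, by distance from the first base of each gene (bp); lines that reach the edge of the plot go on beyond it. The 4 lower genes each have a Sir2 peak of 355 to 381 bp whose summit lies 46 to 60 bp into the gene, and no Hst1 peak.

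Little else between the 5S copies was covered. ASP3-1, ASP3-3 and ASP3-4 had 0 bp under any peak. ASP3-2 had 180 of 1089 bp under a Sir2 peak (473878 to 474107, fold 1.96), whose summit lay 100 bp inside the 5′ end of the gene. The peak had a −log10 q of 3.40, rank 147 of 159. The same place in the other 3 ASP3 copies had no peak. Each copy is 1089 bp long, and whether reads were placed at the wrong copy was not tested. The call in ASP3-2 therefore need not belong to that copy alone. A further Sir2 peak (480113 to 480373, fold 1.86) lay in YLR157C-B, with its summit 1337 bp from the 5′ end, 15 bp beyond the 3′ end of the overlapping Gag gene YLR157C-A. Its −log10 q of 2.87 ranked 158 of 159, so the 2 peaks away from 5S genes were among the weakest of the Sir2 list. Read placement in the Ty1 gene was not tested either. Hst1 and the mock IP had 0 bp over the ASP3 and Ty1 genes.

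**Figure D3:**
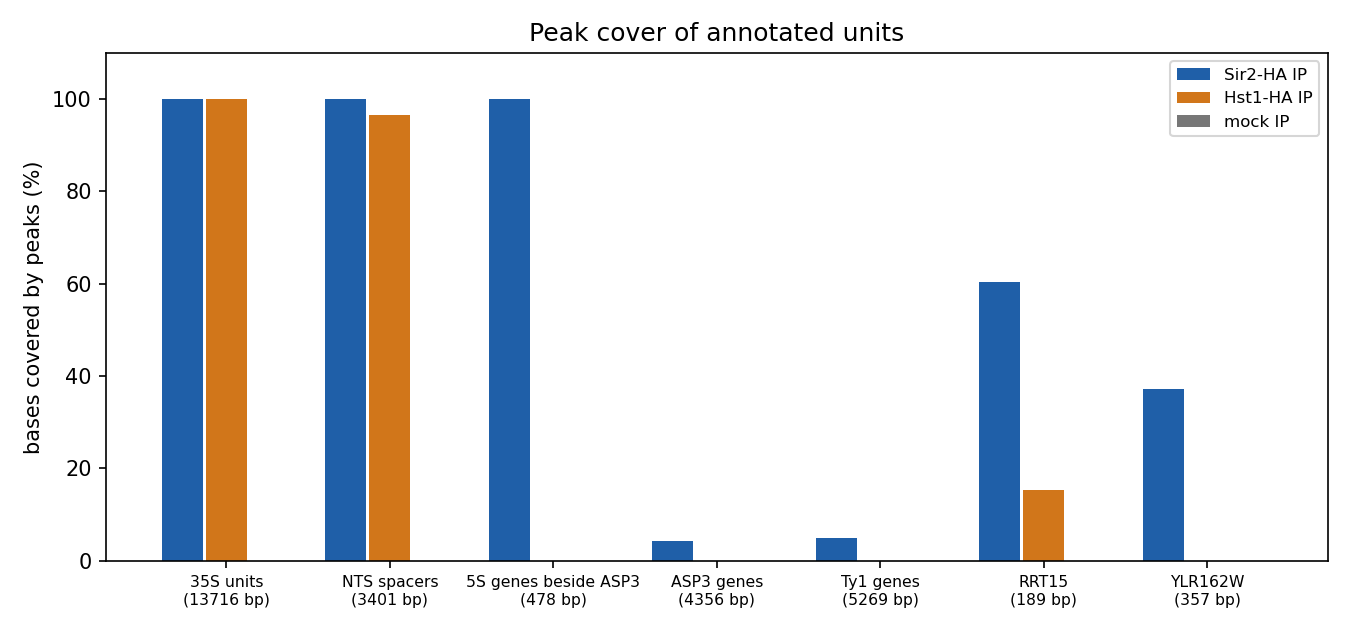
Share of bases under peaks (%) in classes of annotated units, with the total length of each class, for the Sir2-HA, Hst1-HA and mock IPs. The 35S units stand at 100% in both tagged IPs, the 4 outer 5S genes at 100% for Sir2 and 0% for Hst1, and the ASP3 genes at 4.13% for Sir2; the mock IP is at 0% in all classes.

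At the right end both tagged IPs had a peak between YLR162W and RRT15, with their summits in the same window. The Sir2 peak (489797 to 490519, 723 bp, fold 2.61) covered 114 of the 189 bp of RRT15 and 133 of the 357 bp of YLR162W. The Hst1 peak (490078 to 490434, 357 bp, fold 1.38) covered 29 bp of RRT15 and 0 bp of YLR162W. The Sir2 summit, 490218, and the Hst1 summit, 490242, were 24 bp apart and lay 188 and 164 bp before RRT15. This Sir2 peak had the highest fold in the region, against 2.54 over the repeats, and followed the peak at RDN5-6 after a gap of 244 bp. Both peaks had 400 stacked fragments, so the order of the 2 folds reflects only their local backgrounds, 152.8 here and 156.7 over the repeats. Whether reads from the array were placed at this site was not tested.

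Within their own lists, the Hst1 peaks of the region were among the lowest in fold, and the Sir2 peaks ran from the middle of the list to near its end. The 8 Sir2 peaks ranked between 72 and 153 of 159, with a median fold of 2.14, against 2.53 in the 151 other Sir2 peaks. The 3 Hst1 peaks ranked 689, 690 and 692 of 692, with a median fold of 1.35, against 2.22 in the 689 others. By −log10 q, 6 of the 8 Sir2 peaks ranked higher than by fold, at 44 for RRT15, 46 for the repeats and 60 to 67 for the 4 outer 5S genes. The peaks in ASP3-2 and YLR157C-B ranked lower, at 147 and 158 against 139 and 153 by fold. The Hst1 peaks ranked 489 at RRT15, 530 over the repeats and 599 at RDN5-2.

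Fold and −log10 p together give the number of fragments stacked at a summit (the pileup) and the number expected from the caller's local background, if p is a Poisson upper tail and 1 is added to both terms of the fold. Solved this way, the pileup came out within 0.05 of a whole number in 158 of 159 Sir2 peaks, 692 of 692 Hst1 peaks and 3 of 3 mock IP peaks. The highest pileup in the Sir2 list and in the Hst1 list was 400, and 0 peaks exceeded it.

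The repeats and the RRT15 site stood at this top value in both tagged IPs. Over the repeats the pileup was 400 for Sir2 and 400 for Hst1, and at RRT15 it was 400 for Sir2 and 399 for Hst1. The second Hst1 peak, at RDN5-2, had 370. Elsewhere 5 Sir2 peaks had a pileup of 400, and the highest pileup of an Hst1 peak was 399. A top value shared by both lists may be a limit on what could be stacked, so the pileups, backgrounds and folds over the repeats and at RRT15 may be capped values and not levels of binding. The sources used here do not say how duplicate reads were treated, and the part of that step in this value was not tested.

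The local background was also at its highest here. Over the repeats it was 156.7 fragments for Sir2, where the other Sir2 peaks had a median of 24.3 and a maximum of 99.1. For Hst1 it was 295.6, where the other Hst1 peaks had a median of 51.0 and a maximum of 203.2. At RRT15 it was 152.8 for Sir2 and 288.2 for Hst1, in each list 0.975 times the value over the repeats. With the background over the repeats set to 400, the values at RRT15 became 390 in both lists, that of the second Hst1 peak 378, and those at RDN5-3 to RDN5-6 in the Sir2 list 188, 188, 179 and 193 (all whole to within 0.05). On the same scale the 2 other Sir2 peaks were not whole, with 58.8 in ASP3-2 and 61.9 in YLR157C-B.

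The deposited fold over the repeats was 2.54 for Sir2 and 1.35 for Hst1. The Sir2 fold was 1.88 times the Hst1 fold over the repeats and 1.89 times at RRT15. The Hst1 background was 1.89 times the Sir2 background at both places, and the lowest background of any peak stood in the same ratio (20.9 in the Sir2 list and 39.4 in the Hst1 list). Pileup and background were solved from the fold and p, so these ratios are not independent of the folds. Folds of different lists are not on a common scale, and whether Sir2 and Hst1 differ in amount over the repeats cannot be read from them. Where many bases share the top pileup, the place of a summit among them is not resolved, and the lists do not give the number of such bases.

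The 4 outer 5S genes were below the top value. Their Sir2 pileups were 161 at RDN5-3, 156 at RDN5-4, 160 at RDN5-5 and 155 at RDN5-6, over backgrounds of 73.6, 73.6, 70.1 and 75.6. They differed from the 7 Sir2 peaks outside the region with a background of at least 70, which had pileups of 357 to 400. That cutoff was set with the values known, just under the lowest background of the 4 genes. All 7 of those peaks lay near chromosome ends and close to the top value, so the contrast is not with the list at large. The peaks in ASP3-2 and YLR157C-B had a pileup of 46 each, over backgrounds of 23.0 and 24.2, close to the lowest background in the list.

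**Figure D4:**
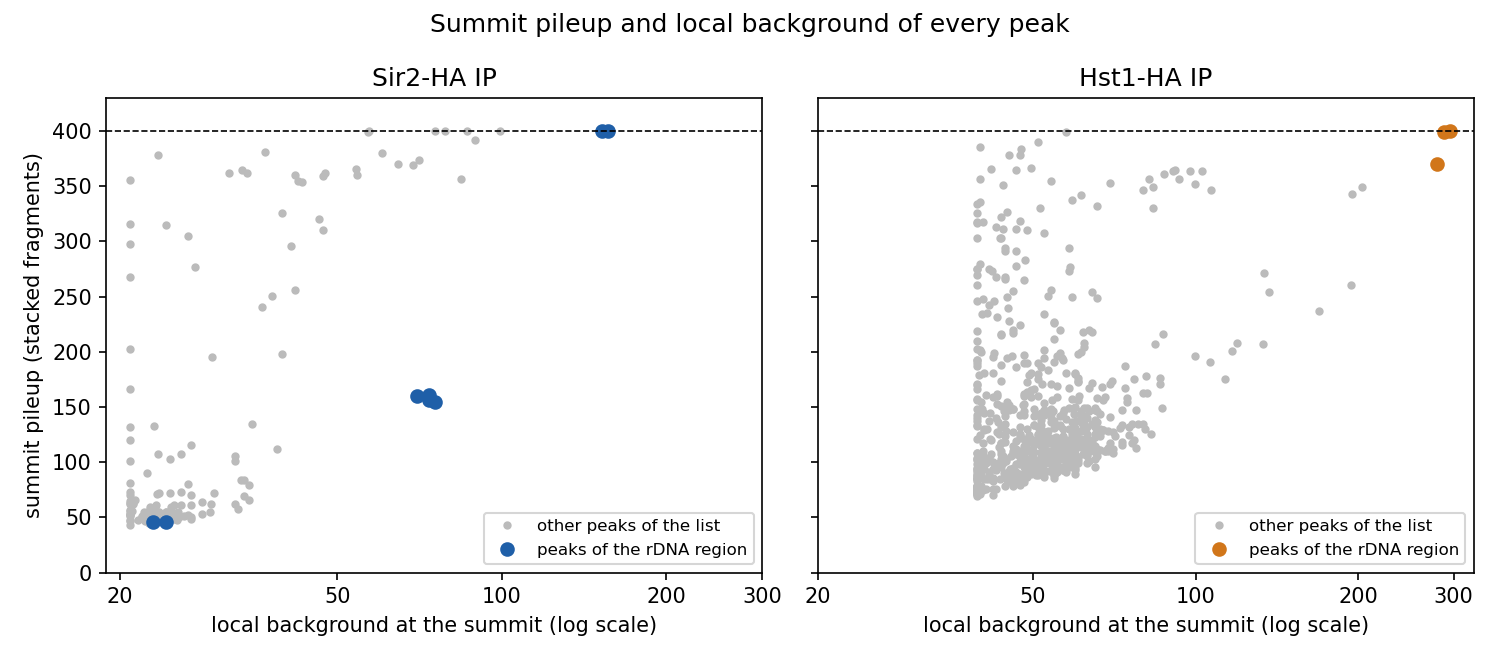
Summit pileup (stacked fragments) against the local background at the summit (log scale) for every peak with a whole pileup in the Sir2-HA and Hst1-HA lists; coloured points are the peaks of the rDNA region and the dashed line marks a pileup of 400. In both panels the long peak over the repeats and the RRT15 peak lie at the far right at 399 to 400. The second Hst1 peak, at RDN5-2, lies beside them at 370. The 4 outer 5S genes form a separate group in the Sir2 panel at pileups of 155 to 161.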

How the data were processed

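Per the labels, 50 OD of early log cells were fixed in 10 mM dimethyl adipimidate for 1 hour and in 1% formaldehyde for 1 hour, and libraries were read for 50 cycles from 1 end. Per the submitters' processing notes, the authors used BWA and MACS2 on sacCer3. Not given in the sources used here were tool versions, cutoffs, treatment of duplicate reads, the control library and any pooling of the 2 technical replicates. The deposited lists give for each peak the authors' fold ratio, −log10 p and −log10 q, a score and the summit position. They hold no read counts, so depth is unknown beyond the recovered pileups.

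Starts were made 1-based, and summits are column 2 plus column 10 plus 1. Cover was summed without double counting, with a window covered from 1 bp (Python 3.11.15, pandas 2.3.3, numpy 2.4.6, scipy 1.17.1). Genes came from a RefSeq table of R64, the assembly of sacCer3; chromosome ends were taken as the last gene or peak. No set of named genes was selected: all 41 genes in the region were scored and every peak is described. The members and lists were chosen with earlier results of these data known, and the pileups were added after the data were seen. Cover and pileup recovery were tested on simulated data. No genome sequence was at hand, so no sequence is shown.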

Additional observations from a re-analysis of the deposited data

How the results depend on the processing

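Of 125 values recomputed under other settings, 86 stayed within 1.5 times the reported value and 39 moved further. The 86 include the mock IP values and the Hst1 cover of ASP3 genes, which were 0 and which no filter of peaks could move. Windows of 100 or 500 bp, a shifted grid, stricter cover of a window and merging of peaks within 500 bp moved none of the values of cover and summits past that limit. Leaving out peaks that overlap one of the mock IP could move no value, because the mock IP had no peak in the region. A −log10 q of at least 10 left Hst1 with 0 summits and 0% of windows, bases, 35S units, spacers and 5S genes, so the shared windows and bases were 0% as well, and the Sir2 cover of ASP3 genes was 0%. The strongest 50% of each list by fold gave the same 0 values, with 2 Sir2 summits left and 33.4% of 5S bases under Sir2. Without the longest peak of each list, windows fell to 10.2% for Sir2, 2.44% for Hst1 and 1.46% for both, and bases to 6.55%, 1.49% and 0.871%. Sir2 then covered 0% of 35S units, 0% of spacers and 66.6% of 5S bases, and Hst1 0%, 4.47% and 14.2%. The median rank of the region's Sir2 peaks, 73.6% down the list by fold, was 39.9% by −log10 q; the cause was not tested. The pileup definition was also varied, a choice made after seeing the data. With a tail that includes the pileup itself, 16 Sir2 and 66 Hst1 peaks were whole; without the added 1 these were 15 and 42, and with both changes 22 and 68. No paired analysis was possible because each IP has 1 list and no test was made. The lists show only what passed the authors' threshold, so weaker cover at this depth cannot be seen.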

Other observations

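The nearest other Sir2 peaks on this chromosome lay 230004 bp to the left of the region and 103112 bp to the right. The nearest Hst1 peaks lay 22709 bp to the left and 13106 bp to the right. The Sir2 list held 159 peaks and the Hst1 list 692, so these distances do not compare the 2 proteins.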
